A study of Mus musculus with 6 samples.

Results

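The genes described here are 10 mouse genes of the unfolded protein response and the integrated stress response, Hspa5, Hsp90b1, Dnajb9, Xbp1, Atf4, Ddit3, Trib3, Asns, Chac1 and Sesn2. They were chosen by symbol through the GRCm38 annotation, and they account for 11 of the 54532 Ensembl gene IDs in each RNAseq profile, since Ddit3 has a second ID (ENSMUSG00000116429, a model with 105 bases of exon) that was listed at 0 in every tumor. Mammary tumors from NeuT/ATTAC mice were profiled, 3 after IgG and 3 after anti-PD-1, and the comparison asks how the tumors of the antibody-treated mice differed from the isotype control. Both groups carried the MMTV-NeuT transgene, in which the mouse mammary tumor virus promoter drives Erbb2, and the FAT-ATTAC transgene on an FVB background, and AP20187 was given to both at 0.4 mg/kg, starting at an age of 6 weeks, which ablates mammary adipose tissue and leads to fibrosis. The labels give the AP20187 injections as biweekly and the methods as triweekly. From 8 weeks of age the mice were injected with 100 μg of either the mAb or the matching IgG. There was no group without AP20187 and none without the NeuT transgene. One figure legend of the study describes pooled RNA, while the labels list 3 samples per group, so the p-values given here measure the spread between these samples and nothing more.

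The unfolded protein response is switched on when unfolded proteins build up in the endoplasmic reticulum (ER), and secretory cells such as those of the mammary epithelium depend on it. Its sensors are IRE1 (encoded by Ern1), which splices the mRNA of Xbp1, PERK (Eif2ak3), which phosphorylates the translation factor eIF2, and ATF6, which is cut by Golgi proteases into a transcription factor. Phosphorylation of eIF2, by PERK or by kinases that sense amino acid shortage, viral RNA or heme deficiency, lowers general translation and favors translation of the transcription factor ATF4, and this shared arm is called the integrated stress response. The values below are RNA levels of whole genes, and they show neither the splicing of Xbp1 nor the translation of Atf4.

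The genes fall into ER chaperones (Hspa5, Hsp90b1 and the co-chaperone Dnajb9), transcription factors (Xbp1, Atf4 and Ddit3) and genes that ATF4 is known to induce (Trib3, Asns, Chac1 and Sesn2). The elements by which the ER arm and the ATF4 arm reach their targets can be read in the promoters, and the stretches that hold them are shown so that the elements can be seen in the genes whose levels follow. All 10 genes matched a RefSeq promoter of 300 bases (250 before and 50 after the start, build GRCm38.p6), and both strands were searched. The ER stress response element, spelled CCAAT and CCACG with any 9 bases between them, was present with at most 1 of its 10 fixed letters changed in 3 of the 10 promoters, against 1.5% of all 32851 promoters. Hspa5 and Hsp90b1 held it without a change, against 0.12% of all promoters. In the lines below, printed 5′ to 3′ on the strand of the gene, capitals mark the matched stretch.
Hspa5 (chr2:34772020-34772048, plus strand): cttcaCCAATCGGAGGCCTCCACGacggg
Hsp90b1 (chr10:86705518-86705671, minus strand): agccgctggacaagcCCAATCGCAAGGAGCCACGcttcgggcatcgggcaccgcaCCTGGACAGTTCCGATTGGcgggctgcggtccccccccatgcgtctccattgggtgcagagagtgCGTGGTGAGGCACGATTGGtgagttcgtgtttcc
Ddit3 (chr10:127290687-127290735, plus strand): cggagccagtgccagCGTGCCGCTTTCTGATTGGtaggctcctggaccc

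In Hsp90b1 the matches after the first, and in Ddit3 the only match, were read on the opposite strand. The middle match in Hsp90b1 and the match in Ddit3 each differed from the element in 1 fixed letter. The shorter element of ATF6 and XBP1, TGACGTG, was found in 1 of the 10 promoters, that of Hspa5, and in 2.01% of all promoters. The C/EBP-ATF response element, through which ATF4 acts with C/EBP partners, was searched as TGATGNAA and was found in 3 of the 10 promoters, against 3.97% of all. None of the matches of different elements overlapped. The 3 promoters with it were those of the ATF4 target genes Asns, Chac1 and Trib3, and the match lay before the RefSeq start in Asns and Chac1 and just past it in Trib3. The GENCODE starts used below differ, so that by them the match in Trib3 lies before the gene, while the match in Asns and the ER stress response element in Hspa5 lie inside it.
Asns (chr6:7693220-7693237, minus strand): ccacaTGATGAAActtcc
Chac1 (chr2:119351034-119351071, plus strand): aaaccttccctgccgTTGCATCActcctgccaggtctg
Trib3 (chr2:152344034-152344051, minus strand): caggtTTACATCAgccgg

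These matches are a description of the letters in the windows. No match to these spellings was found in the windows of Dnajb9, Xbp1, Atf4 and Sesn2.

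The deposited values are FPKM, fragments per kilobase of exon scaled to the depth of the library, and they were recovered as whole reads for all 10 genes, out of between 21075641 and 23852764 whole reads per tumor. The epithelial markers Epcam (683 to 1142 FPKM), Krt8 (426 to 1035 FPKM) and Krt18 (678 to 1377 FPKM) were high in every tumor, and Erbb2 was between 20.2 and 31.3 FPKM. Summed over 6 epithelial markers, the level was 1894 to 2705 FPKM in IgG and 2595 to 3661 FPKM in anti-PD-1 tumors. Those 3 genes carried most of the sum. Krt19 was between 7.39 and 77.3 FPKM in IgG and between 1.69 and 5.23 FPKM in anti-PD-1 tumors. Cdh1 was between 79.9 and 125 FPKM in IgG and between 62.0 and 93.7 FPKM in anti-PD-1 tumors. Of the 6 markers, 4 had a positive log2 fold change. Krt8 and Krt18 lie on chromosome 15 and were highest in anti-PD-1 replicate 3. There the median gene of that chromosome was 0.33 higher, in log2, than its own mean over the tumors. The part of the chromosome in the sum was not tested. The sum of 6 milk genes was 2909 to 7604 FPKM in IgG and 1806 to 3877 FPKM in anti-PD-1 tumors. Markers of fibroblasts (75.9 to 337 FPKM), plasma cells (49.2 to 99.5 FPKM), endothelial cells (9.31 to 20.2 FPKM) and skeletal muscle (0.608 to 147 FPKM) were lower in sum, while the T cell and adipocyte lists each summed to under 4 FPKM. The muscle sum was 135 FPKM in IgG replicate 2, 74.6 in anti-PD-1 replicate 1 and 147 in anti-PD-1 replicate 2. It was at most 5.26 FPKM in the other tumors, and its part in the levels below was not tested. The 6 macrophage markers summed to 184 to 323 FPKM in IgG and 241 to 387 FPKM in anti-PD-1 tumors, and 6 of the 6 had a positive log2 fold change (median 0.37). A uniform sign was not particular to that list. Positive were 5 of 5 skeletal muscle markers (median 0.81), 0 of 6 milk genes (-0.59) and 0 of 5 endothelial markers (-0.21). No marker of these lists was at 0 in all 6 tumors. In bulk tumors, fewer cells of a type and less RNA per cell cannot be told apart.

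All 10 genes passed the filter on low values, a mean of at least 0.5 FPKM. Since FPKM is scaled by length, levels can be ordered across genes. Hspa5 had the highest mean over the 6 tumors with 355 FPKM, followed by Hsp90b1 with 300.4, Xbp1 with 273, Atf4 with 78.1, Trib3 with 31.3, Dnajb9 with 24.4, Asns with 13.4, Ddit3 with 11.6, Sesn2 with 3.55 and Chac1 with 1.25 FPKM. The ranges of Hspa5, Hsp90b1 and Xbp1 over the tumors overlapped one another, and so did those of Trib3 with Dnajb9, Dnajb9 with Asns, Dnajb9 with Ddit3 and Asns with Ddit3. Atf4 lay below the first 3 genes and above Trib3 in every tumor, and Sesn2 lay below Ddit3 and above Chac1 in every tumor. Hspa5, Hsp90b1 and Xbp1 were each higher in mean FPKM than at least 99.1% of the 15069 genes tested, whereas Chac1 was higher than 17.9% of them.

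Levels were compared by limma on log2(FPKM + 1). Of the 10 genes, 5 had a positive and 5 a negative log2 fold change of anti-PD-1 against IgG, with a median of -0.02 against 0.01 for all genes tested. None of the 10 had a limma adjusted p under 0.05, nor did any of the 15069 genes tested (0.0%). At an unadjusted limma p under 0.05 there was 1 gene of the 10, Trib3, against 12.3% of all genes tested. It was higher in the anti-PD-1 tumors, as were 6.22% of all genes at that threshold, while none of the 10 was lower, against 6.05% of all genes. In 2 of the 10 genes, Trib3 and Xbp1, IgG and anti-PD-1 tumors held separate ranges, against 18.1% of all genes. Trib3 was higher without overlap (9.3% of all genes) and Xbp1 lower (8.75% of all genes). For Trib3 this held only after the division by median-of-ratios factors, and in the FPKM as deposited its groups overlapped. These counts lie near the shares of all genes tested and are no result about these genes as a set. The lowest to highest tumor spanned between 1.48-fold in Atf4 and 2.83-fold in Ddit3.

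**Figure D1:**
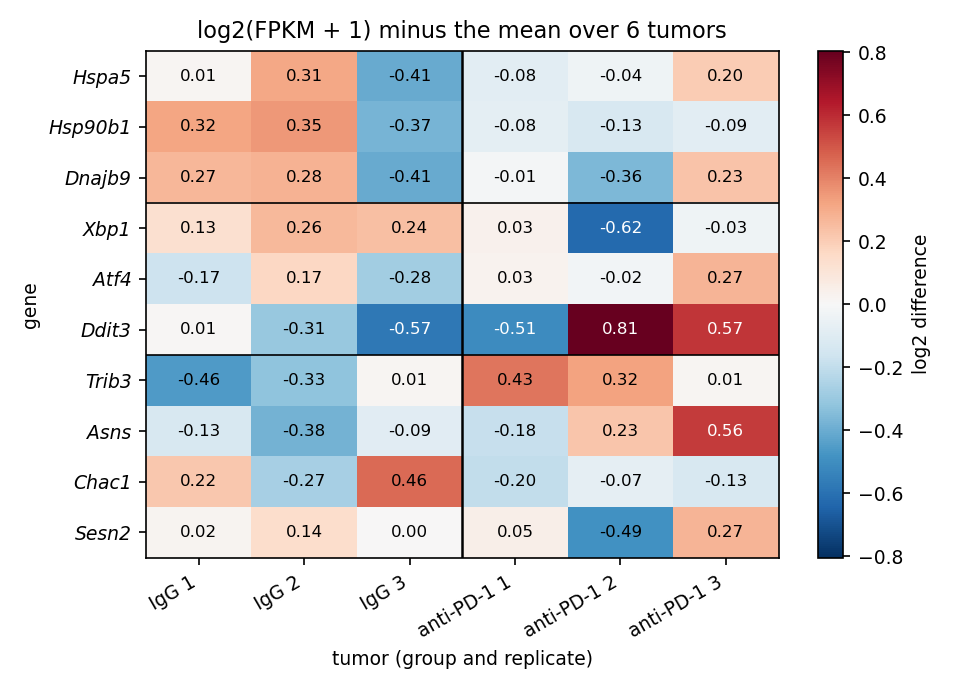
Level of each of the 10 genes (rows) in each of the 6 tumors (columns, group and replicate), as log2(FPKM + 1) minus the mean of the gene over the tumors. Red is above and blue below the mean, the vertical line parts the groups and the horizontal lines part chaperones, transcription factors and ATF4 target genes. The 3 chaperone rows are lowest in IgG replicate 3 (-0.37 to -0.41), while Ddit3 runs from -0.57 to 0.81.

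Hspa5 encodes BiP, the main HSP70 of the ER, which binds unfolded proteins and holds the stress sensors inactive. Hspa5 (ENSMUSG00000026864, chromosome 2 from 34771970 to 34777547) measured 354, 435 and 264 FPKM across IgG tumors in replicate order, against 331, 341 and 404 FPKM across anti-PD-1 tumors. The highest and the lowest tumor were both IgG tumors, and the anti-PD-1 tumors lay between them. Its log2 fold change was 0.06 (95% interval -0.50 to 0.61, limma adjusted p = 0.943), and it was below 0 when IgG replicate 3 (-0.13) or anti-PD-1 replicate 3 (-0.03) was left out and under quantile normalization (-0.03).

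Hsp90b1 encodes GRP94, the HSP90 chaperone of the ER that folds integrins and other secretory clients. Hsp90b1 (ENSMUSG00000020048, chromosome 10 from 86690209 to 86705509) measured 369, 376 and 228 FPKM across IgG tumors in replicate order, against 280.4, 271 and 278 FPKM across anti-PD-1 tumors. The anti-PD-1 tumors lay close together (SD 5.13 FPKM, n = 3), and the IgG tumors lay on either side of them (SD 83.6 FPKM, n = 3). The log2 fold change was -0.19 (95% interval -0.75 to 0.37, limma adjusted p = 0.767). It was -0.08 without IgG replicate 1, -0.07 without IgG replicate 2 and -0.43 without IgG replicate 3, the last at an unadjusted limma p of 0.0324 and an adjusted p of 0.489 (0.489 to 0.965 over the alternatives). A pseudogene on the opposite strand, 1810014B01Rik, shares exons with Hsp90b1, as do Gm15344 and Gm25745 on the same strand, and reads of these could not be separated.

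Dnajb9 encodes ERdj4, a J-domain partner of BiP that is induced through XBP1 and helps to silence IRE1. Dnajb9 (ENSMUSG00000014905, chromosome 12 from 44205559 to 44210326) measured 29.1, 29.3 and 17.8 FPKM across IgG tumors in replicate order, against 23.7, 18.4 and 28.2 FPKM across anti-PD-1 tumors, so that both groups spanned nearly the same range. Its log2 fold change was -0.10 (95% interval -0.68 to 0.49, limma adjusted p = 0.894) and changed sign in 3 of the fits that each left out 1 tumor, namely IgG replicate 1 (0.01), IgG replicate 2 (0.02) and anti-PD-1 replicate 2 (0.06).

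The 3 chaperone genes thus shared the tumor at either end, IgG replicate 2 with the highest and IgG replicate 3 with the lowest level. The highest was 1.65-fold above the lowest in Hspa5, 1.65-fold in Hsp90b1 and 1.65-fold in Dnajb9, a spread inside the IgG group that exceeded the difference between the groups. The summed epithelial markers were lowest in IgG replicate 3 (1894 FPKM) and next lowest in IgG replicate 2 (2363 FPKM). The summed milk genes were highest in IgG replicate 2 (7604 FPKM). In IgG replicate 3 the milk genes Csn1s1, Csn1s2a and Csn3 were at their lowest of the 6 tumors (32.2, 51.8 and 1578 FPKM), while Lalba was at its highest (1226 FPKM). The part of these in the chaperone levels was not tested.

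Xbp1 encodes the transcription factor that IRE1 activates by splicing, and it drives the secretory program of the mammary epithelium and of plasma cells. Xbp1 (ENSMUSG00000020484, chromosome 11 from 5520659 to 5525893) measured 293, 321 and 317 FPKM across IgG tumors in replicate order, against 274, 173.5 and 262 FPKM across anti-PD-1 tumors. Every anti-PD-1 tumor lay below every IgG tumor, with anti-PD-1 replicate 2 far below the others. The groups gave 310.1 ± 15.2 (SD, n = 3) and 236 ± 54.8 FPKM (SD, n = 3), a two-sided exact permutation test gave p = 0.1, the smallest value that 3 tumors against 3 allow, and the log2 fold change was -0.42 (95% interval -0.95 to 0.11, limma adjusted p = 0.480). Leaving out anti-PD-1 replicate 2 brought the log2 fold change to -0.21. In that tumor the milk genes had their lowest sum (1806 FPKM), most of it from Csn3 (1620 FPKM). Lalba was at its lowest there (30.02 FPKM), while Csn1s1, Csn1s2a and Csn3 were lower in IgG replicate 3. The plasma cell markers summed to 49.2 FPKM in anti-PD-1 replicate 2 and to 49.8 FPKM in IgG replicate 3, where Xbp1 was at 317 FPKM. Sdc1 (21.2 and 18.0 FPKM) and Derl3 (12.7 and 16.8 FPKM), the latter a gene that XBP1 induces, made up most of these sums. Jchain was at 0.179 and 0.951 FPKM, so the sums need not measure plasma cells. Their part in the level of Xbp1 was not tested.

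Atf4 encodes the transcription factor at the center of the integrated stress response. Atf4 (ENSMUSG00000042406, chromosome 15 from 80255184 to 80257541) measured 68.9, 87.0 and 63.5 FPKM across IgG tumors in replicate order, against 79.1, 76.3 and 93.9 FPKM across anti-PD-1 tumors. The groups overlapped, since IgG replicate 2 exceeded anti-PD-1 replicates 1 and 2. Its log2 fold change was 0.19 (95% interval -0.24 to 0.62, limma adjusted p = 0.697), and it was 0.32 without IgG replicate 2, 0.09 without IgG replicate 3, 0.10 without anti-PD-1 replicate 3 and 0.05 under quantile normalization. The median log2 fold change of the 630 genes tested on chromosome 15 was 0.17, and in anti-PD-1 replicate 3, where Atf4 was highest, the median gene of that chromosome was 0.33 higher, in log2, than its own 6-tumor mean. Whether Atf4 followed its chromosome was not tested.

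Ddit3 encodes CHOP, a transcription factor induced downstream of ATF4 that favors cell death under lasting stress. Ddit3 (ENSMUSG00000025408, chromosome 10 from 127290774 to 127296288) measured 10.8, 8.50 and 6.89 FPKM across IgG tumors in replicate order, against 7.28, 19.5 and 16.5 FPKM across anti-PD-1 tumors, from between 291 and 817 reads. In 2 anti-PD-1 tumors Ddit3 was above every IgG tumor, and in anti-PD-1 replicate 1 it was below 2 of the IgG tumors. The log2 fold change, 0.58 (95% interval -0.24 to 1.41, limma adjusted p = 0.525), had the largest absolute value of the 10 genes. It was 0.98 without anti-PD-1 replicate 1 (unadjusted limma p of 0.00481, adjusted p = 0.411, with 0.41 to 0.806 over the alternatives) and 0.33 without anti-PD-1 replicate 2. The spread of Ddit3 within the groups, 0.54 on the log2 scale, was wider than in 85.3% of the genes tested. Mars, the methionyl-tRNA synthetase gene on the opposite strand, overlaps Ddit3 by 68 bases, and whether the counting used strand is not given in the sources used here. Mars was between 11.8 and 13.2 FPKM in IgG and between 14.7 and 16.5 FPKM in anti-PD-1 tumors.

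**Figure D2:**
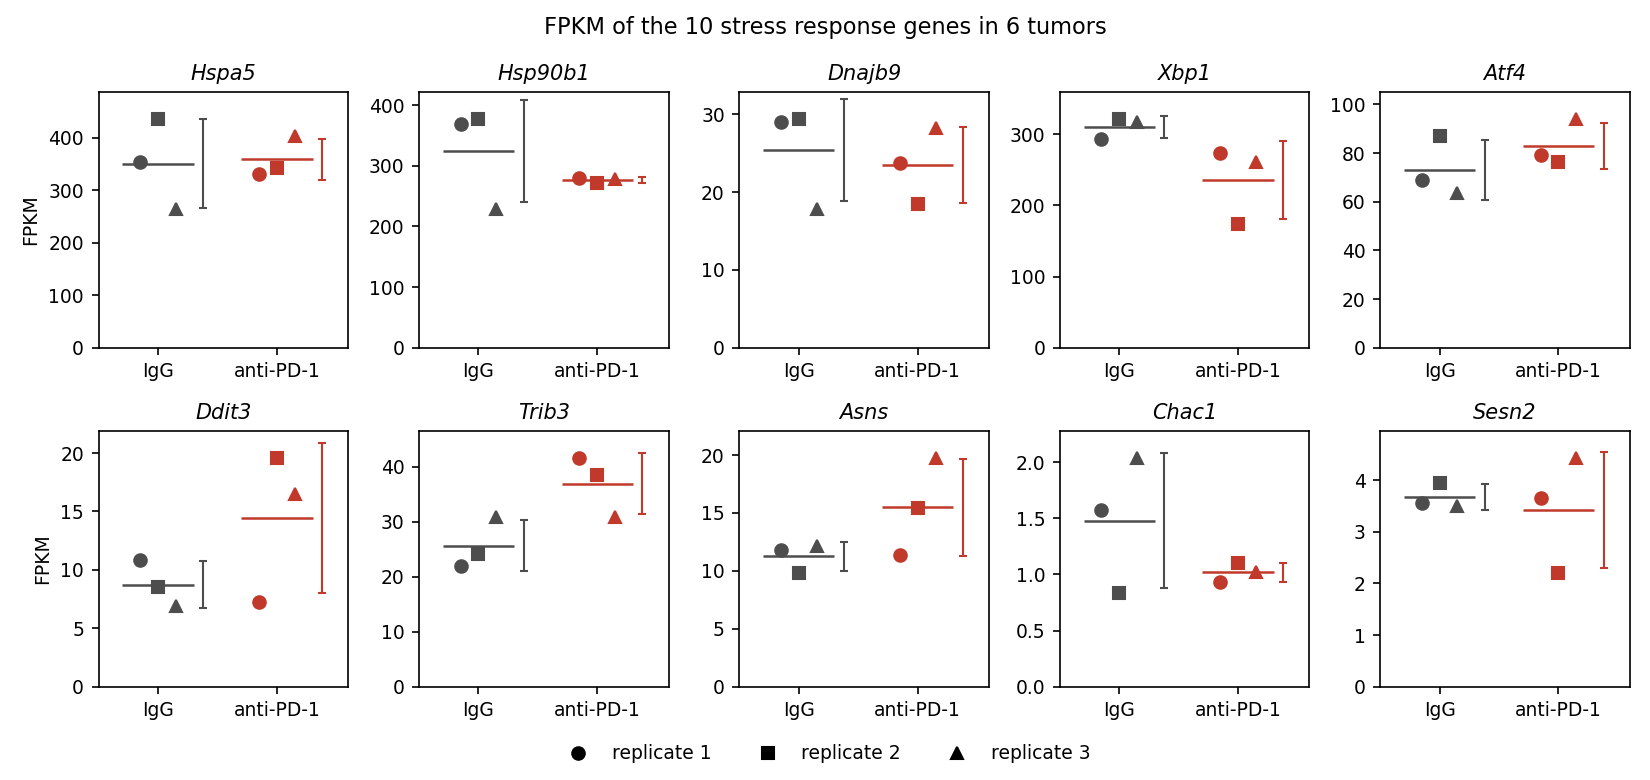
FPKM (vertical axes, each from 0) of the 10 genes in the 3 IgG (gray) and 3 anti-PD-1 (red) tumors. Symbols are single tumors by replicate number, horizontal lines are group means and the bars beside them are ± 1 SD. The FPKM shown are divided by the median-of-ratios factors. The groups part only in Xbp1 and, by the narrow gap between 30.78 and 30.83 FPKM, in Trib3. Before that division the Trib3 groups overlap.

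Trib3 encodes a pseudokinase that is induced by ATF4 and CHOP and restrains AKT and ATF4 itself. Trib3 (ENSMUSG00000032715, chromosome 2 from 152337422 to 152344032) measured 21.9, 24.1 and 30.78 FPKM across IgG tumors in replicate order, against 41.5, 38.4 and 30.83 FPKM across anti-PD-1 tumors. The lowest anti-PD-1 tumor and the highest IgG tumor were nearly level, so the absence of overlap rests on a very small gap. These FPKM are divided by median-of-ratios factors, 1.0096 in IgG replicate 3 and 1.0058 in anti-PD-1 replicate 3. Multiplied back, IgG replicate 3 lies above anti-PD-1 replicate 3, so the groups overlap in the FPKM as deposited. The groups gave 25.6 ± 4.61 (SD, n = 3) and 36.9 ± 5.5 FPKM (SD, n = 3). A two-sided exact permutation test on the divided values gave p = 0.1. Its log2 fold change of 0.52 (95% interval 0.06 to 0.97) had an unadjusted limma p of 0.0303 and an adjusted p of 0.376. Leaving out single tumors gave log2 fold changes from 0.41 to 0.65, but the unadjusted limma p was above 0.05 in 4 of these 6 fits (0.0948 without IgG replicate 1, 0.0781 without IgG replicate 2, 0.0970 without anti-PD-1 replicate 1 and 0.0815 without anti-PD-1 replicate 2).

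Asns encodes asparagine synthetase, which ATF4 induces when amino acids are short. Asns (ENSMUSG00000029752, chromosome 6 from 7675169 to 7693254) measured 11.8, 9.78 and 12.1 FPKM across IgG tumors in replicate order, against 11.3, 15.4 and 19.7 FPKM across anti-PD-1 tumors. As in Ddit3, anti-PD-1 replicates 2 and 3 lay above every IgG tumor and anti-PD-1 replicate 1 lay among them. The log2 fold change was 0.40 (95% interval -0.11 to 0.91, limma adjusted p = 0.482). It was 0.60 without anti-PD-1 replicate 1 (unadjusted limma p of 0.0231, adjusted p = 0.433, with 0.433 to 0.819 over the alternatives) and 0.22 without anti-PD-1 replicate 3.

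Chac1 encodes a glutathione-degrading enzyme that is among the more sensitive ATF4 targets. Chac1 (ENSMUSG00000027313, chromosome 2 from 119351229 to 119354381) was low, measuring 1.57, 0.834 and 2.03 FPKM across IgG tumors in replicate order, against 0.929, 1.10 and 1.02 FPKM across anti-PD-1 tumors, from 33 to 82 reads. The anti-PD-1 tumors lay together inside the range of the IgG tumors. Its log2 fold change was -0.27 (95% interval -0.82 to 0.28, limma adjusted p = 0.660), and it was -0.47 without IgG replicate 2, -0.11 without IgG replicate 3, -0.42 with 0.1 added to FPKM and -0.44 with voom. At so few reads, counting error alone is wide, and a log2 fold change on FPKM + 1 understates the change of a gene near 1 FPKM.

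Sesn2 encodes sestrin 2, a stress-induced inhibitor of mTORC1 that senses leucine and is a target of both ATF4 and p53. Sesn2 (ENSMUSG00000028893, chromosome 4 from 132492032 to 132510501) measured 3.55, 3.95 and 3.5 FPKM across IgG tumors in replicate order, against 3.65, 2.20 and 4.42 FPKM across anti-PD-1 tumors. The lowest and the highest tumor were both anti-PD-1 tumors. The log2 fold change was -0.11 (95% interval -0.64 to 0.42, limma adjusted p = 0.865) and 0.11 without anti-PD-1 replicate 2, the lowest tumor. Sesn2 lies on chromosome 4, where the median log2 fold change of the 926 genes tested was -0.40. The median gene of chromosome 4 was below its 6-tumor mean in all 3 anti-PD-1 tumors (-0.16, -0.22 and -0.24 on the log2 scale). Sesn2 was below its mean only in anti-PD-1 replicate 2 among them. Whether Sesn2 followed its chromosome was not tested.

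**Figure D3:**
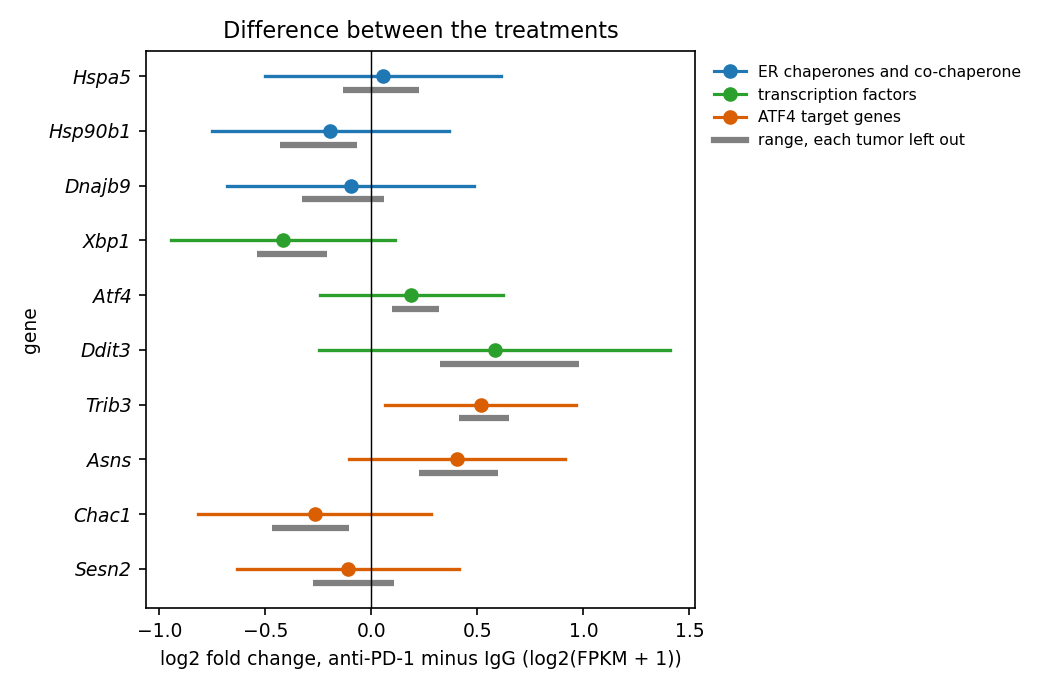
Log2 fold change of anti-PD-1 against IgG (horizontal axis, on log2(FPKM + 1)) for each gene, with the limma estimate as a point, its 95% interval as a colored line and, under it in gray, the range of the estimates when single tumors were left out. Only the interval of Trib3, from 0.06 to 0.97, lies on 1 side of 0.

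The 4 ATF4 target genes differed among themselves. Trib3 was highest in anti-PD-1 replicate 1 (0.43 above its mean on the log2 scale), a tumor in which Asns (-0.18) and Ddit3 (-0.51) were below their means. Chac1 was highest in IgG replicate 3, and both Asns and Sesn2 were highest in anti-PD-1 replicate 3. To measure likeness, the root mean square difference between 2 genes' log2 profiles, each centred on its mean over the 6 tumors, was computed for every pair. The closest pair was Hspa5 with Atf4 (0.12), followed by Hsp90b1 with Dnajb9 (0.17), Hspa5 with Dnajb9 (0.17), Hspa5 with Hsp90b1 (0.177) and Xbp1 with Sesn2 (0.180). Per tumor, the median of the 10 genes relative to their means came to 0.02, 0.15 and -0.19 across IgG tumors in replicate order, against -0.05, -0.06 and 0.22 across anti-PD-1 tumors, in log2, so that neither group was above the other.

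The rest of the pathway was read from 4 lists of other genes, none of which had a gene with a limma adjusted p under 0.05. For the counts of positive log2 fold changes in these lists, 7651 of all 15069 genes tested were positive. Of 18 sensors, eIF2 kinases and eIF2 control genes, 17 were tested (Ern2 was too low), none had an unadjusted limma p under 0.05 (12.3% of all genes), and the median log2 fold change was 0.04. The sensors Ern1 (-0.10), Eif2ak3 (0.28) and Atf6 (-0.23) had log2 fold changes with limma adjusted p of 0.811, 0.621 and 0.606, and the groups overlapped in each. In Ppp1r15a, which encodes GADD34, the ATF4-induced subunit that directs dephosphorylation of eIF2, the groups did not overlap. It had 4.92, 4.76 and 5.61 FPKM in IgG and 7.38, 6.38 and 6.24 FPKM in anti-PD-1 tumors, a log2 fold change of 0.33 (limma adjusted p = 0.432). Eif2b5, which encodes a catalytic subunit of the eIF2 exchange factor, also did not overlap, with a log2 fold change of 0.38 (limma adjusted p = 0.435). These were the 2 genes of the 17 without overlap, both higher, against 9.3% of all genes. Without anti-PD-1 replicate 3, 1 gene of this list had an unadjusted limma p under 0.05, against 7.68% of all genes in that fit.

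All 22 ER folding enzymes and chaperones were tested, and 15 had a positive log2 fold change, with a median of 0.18. The unadjusted limma p was under 0.05 in 2 of them, both higher, against 12.3% of all genes in either direction, whereas quantile normalization gave 0 higher and 1 lower. They were Dnajb11, which encodes the BiP partner ERdj3, at a log2 fold change of 0.36 (limma adjusted p = 0.384), and Creld2, an ER stress-induced protein of the chaperone network, with 0.62 (limma adjusted p = 0.407). Dnajb11 had 27.1, 27.5 and 25.3 FPKM in IgG and 37.4, 33.5 and 32.6 FPKM in anti-PD-1 tumors. Creld2 had 36.2, 44.5 and 38.03 FPKM in IgG and 51.2, 48.4 and 91.6 FPKM in anti-PD-1 tumors, so that anti-PD-1 replicate 3 carried most of its difference. Creld2 lies on chromosome 15, whose median gene was in that tumor 0.33 higher, in log2, than its own mean over the tumors. Whether Creld2 followed its chromosome was not tested. Sil1, the nucleotide exchange factor of BiP, also did not overlap between the groups, with a log2 fold change of 0.35 (limma adjusted p = 0.493), which made 3 of the 22 without overlap, each higher, against 9.3% of all genes. The count of 2 at that p became 4 without IgG replicate 1 (2 higher and 2 lower, against 17.8% of all genes in that fit) and 0 without IgG replicate 2 (6.38% of all genes), IgG replicate 3 (9.98%) or anti-PD-1 replicate 3 (7.68%).

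Among 25 genes of translocation into the ER and of ER-associated degradation, 17 had a positive log2 fold change and the median was 0.06. At an unadjusted limma p under 0.05 there were 3 higher genes and 1 lower of the 25, against 6.22% and 6.05% of all genes, whereas quantile normalization gave 0 higher and 2 lower. The higher ones were Sel1l, the scaffold of the HRD1 ubiquitin ligase, with a log2 fold change of 0.69 (adjusted p = 0.362), Edem2, which trims mannose from misfolded glycoproteins, with 0.43 (adjusted p = 0.401), and Sec61a1, the channel of the translocon, with 0.33 (adjusted p = 0.406). Sel1l had 47.6, 30.7 and 52.6 FPKM in IgG and 74.9, 58.7 and 75.7 FPKM in anti-PD-1 tumors. The lower one was Derl3, a derlin of the secretory lineages that XBP1 induces, with 13.8, 18.2 and 16.8 FPKM in IgG and 11.7, 12.7 and 12.2 FPKM in anti-PD-1 tumors and a log2 fold change of -0.38 (adjusted p = 0.397). Without overlap but above that threshold were Ssr1 (0.31), Syvn1 (0.28) and Edem3 (-0.30), and altogether 5 higher and 2 lower genes of the 25 did not overlap, against 9.3% and 8.75% of all genes. The count of 4 became 7 with no filter on low FPKM (5 higher and 2 lower, against 8.01% of all genes in that fit), 1 without IgG replicate 2 (6.38% of all genes in that fit), 2 without IgG replicate 3 (9.98%), 2 without anti-PD-1 replicate 2 (9.27%), and 0 without anti-PD-1 replicate 1 (11%) or anti-PD-1 replicate 3 (7.68%).

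**Figure D4:**
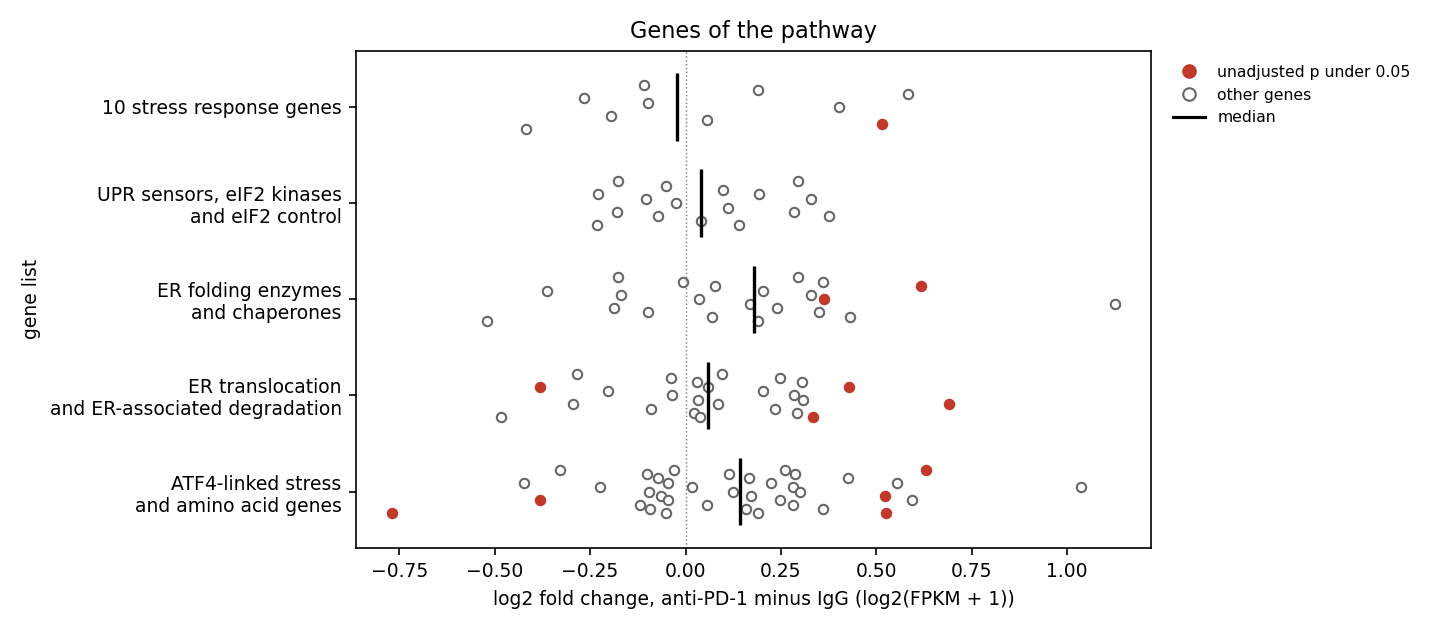
Log2 fold change of anti-PD-1 against IgG (horizontal axis, on log2(FPKM + 1)) of every tested gene in the 10 stress response genes and in the 4 lists of other pathway genes (vertical axis). Each circle is 1 gene, filled where its unadjusted limma p was under 0.05, and the black bar is the median of the list. The medians run from -0.02 for the 10 genes to 0.18 for the folding enzymes, and most circles of each list are open.

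Of 43 stress and amino acid genes linked to ATF4, 38 were tested, and Gdf15, Fgf21, Slc7a11, Slc7a3 and Slc6a9 were too low. There were 23 positive log2 fold changes, and the median was 0.14. At an unadjusted limma p under 0.05 there were 3 higher and 2 lower genes of the 38, against 6.22% and 6.05% of all genes, so the count is near the background. Without overlap between the groups were 5 higher and 2 lower genes of the 38, against 9.3% and 8.75% of all genes. Higher were Sars (0.52, adjusted p = 0.378), the seryl-tRNA synthetase, Mthfd2 (0.52, adjusted p = 0.383), a mitochondrial enzyme of one-carbon metabolism, and Jdp2 (0.63, adjusted p = 0.380), a bZIP repressor whose groups overlapped. Lower were Stc2 (-0.77, adjusted p = 0.374), a secreted glycoprotein induced by PERK, and Cebpg (-0.38, adjusted p = 0.406), a bZIP partner of ATF4. Stc2 had 3.09, 3.61 and 4.01 FPKM in IgG and 2.91, 0.847 and 1.65 FPKM in anti-PD-1 tumors. Mthfd2 had 1.49, 0.866 and 1.04 FPKM in IgG and 2.26, 1.65 and 2.25 FPKM in anti-PD-1 tumors.

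Of the 11 aminoacyl-tRNA synthetases in that list, 9 had a positive log2 fold change, against 7651 of all 15069 genes tested, with a median of 0.26. Among them 1 (Sars) had an unadjusted limma p under 0.05, against 12.3% of all genes. Gars (0.36) and Mars (0.29) were above that threshold but, like Sars, did not overlap between the groups, 3 of the 11 and each higher, against 9.3% of all genes. Among the 11 genes of serine, one-carbon and amino acid synthesis, 7 were positive with a median of 0.19, and the 6 transporters tested had a median of 0.12. Of the 6 transcription factors, 1 was higher (Jdp2) and 1 lower (Cebpg) at that threshold, and the median was -0.11. Leaving out IgG replicate 2 or anti-PD-1 replicate 3 lowered the number of genes of the ATF4-linked list at an unadjusted limma p under 0.05 from 5 to 0, and leaving out IgG replicate 3 lowered it to 2. Over all genes the share went from 12.3% to 6.38%, 7.68% and 9.98% in these fits.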

How the data were processed

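The authors deposited an FPKM table of 54532 Ensembl gene IDs for each of the 6 tumors. Per the labels and the methods, reads were trimmed with Cutadapt 3.5, checked with FastQC 0.11.9, and aligned and counted with RSEM 1.3.1 on a Bowtie2 2.4.1 index of mm10. How the deposited FPKM was made is not given in the sources used here, and estimated counts from RSEM need not be whole, unlike the reads found below, so the counting behind the FPKM is unknown. Of the gene IDs, 54495 matched GENCODE M21 (GRCm38), which gave symbols, coordinates and merged exon lengths. FPKM times exon length fell within 0.1 of whole multiples of 1 read for between 96.99% and 97.33% of the values above 0, which gave the reads behind each value.

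FPKM was divided by median-of-ratios factors (1.0023 to 1.0096), and the FPKM printed here are after that division. For the comparisons 1 was added and log2 taken. The 15069 genes averaging 0.5 FPKM or more as deposited were compared with limma 3.58.1 in R 4.3.3 (lmFit and eBayes with an intensity trend, two-sided, Benjamini-Hochberg adjustment over all of them), and single genes also with an exact permutation test in scipy 1.17.1. Groups came from the sample labels. The fits were tested on simulated reads. Alternatives were another pseudocount, filter, normalization and variance model, a replicate block, voom and leaving out each tumor.

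The 10 genes and all lists were chosen with earlier results of these data known, and Mars1 of the ATF4-linked list was matched as Mars. Named besides the 10 genes were, per list, up to 4 higher and 4 lower genes without overlap between the groups, genes needed to name a short count, and for Hspa5 and Asns the 3 genes of most similar profile. Syvn1, Ern1, Eif2ak3, Atf6, Krt19, Csn1s1, Csn1s2a, Csn3, Lalba, Sdc1, Ero1l and Phgdh were named after their values were seen.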

Additional observations from a re-analysis of the deposited data

How the results depend on the processing

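Over 14 alternatives, 132 of the 139 log2 fold changes recomputed for the 10 genes kept their sign and their side of an adjusted p of 0.05, and 7 changed sign. Since that adjusted limma p was reached by 0 of 15069 genes in the main fit and by at most 12 in any alternative, the side could hardly change. The count therefore tells of the sign alone, and unadjusted p moved more. The sign changed for Hspa5 under quantile normalization (-0.025) and without IgG replicate 3 (-0.134) or anti-PD-1 replicate 3 (-0.033), for Dnajb9 without IgG replicate 1 (0.013), IgG replicate 2 (0.019) or anti-PD-1 replicate 2 (0.058), and for Sesn2 without anti-PD-1 replicate 2 (0.105). Leaving out single tumors gave ranges of -0.134 to 0.225 for Hspa5, -0.325 to 0.058 for Dnajb9, -0.274 to 0.105 for Sesn2 and -0.120 to 0.122 for the median of the 10 genes. Chac1 was not tested at a mean of at least 2 FPKM. Counts at an unadjusted limma p under 0.05 moved with single tumors, as did the share over all genes (6.38% to 17.8%, main 12.3%), from 0 to 2 for the 10 genes (main 1), 0 to 1 for sensors and eIF2 control (main 0), 0 to 4 for folding enzymes (main 2), 0 to 3 for translocation and degradation (main 4) and 0 to 5 for ATF4-linked genes (main 5). Sensors and eIF2 control had 1 such gene under quantile normalization. Folding enzymes had 1, a higher gene, with no filter, with a mean of at least 2 FPKM, with FPKM as deposited and without the intensity trend, and 1, a lower gene, with quantile normalization. Translocation and degradation genes numbered 7 with no filter, 2 with quantile normalization (both lower), 1 without the trend and 2 with voom on recovered reads, where 8.01%, 11.6%, 11.9% and 12.7% of all genes passed. The causes of these moves were not tested. Quantile normalization also brought Xbp1 to an unadjusted limma p of 0.0455 and Trib3 to 0.0680.

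With the replicate number as a block, the counts were 0 for the 10 genes (Trib3 at an unadjusted limma p of 0.0662), 0 for folding enzymes and 1 for translocation and degradation, against 11.4% of all genes. The deviations of same-numbered tumors from their group means correlated at -0.164, 0.005 and 0.194 across genes, so the numbers were not taken to pair the tumors. Over all genes tested, no adjusted p was under 0.05 except for 1 gene with voom, 12 genes without IgG replicate 1 and 1 gene without IgG replicate 3, none of them among the 10 genes. For Chac1, with 33 to 82 reads, depth limits what could be seen.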

Other observations

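The genes whose profile over the 6 tumors was most like that of Hspa5, by the root mean square difference of centred log2 values, were Lat2 (0.022), Ptprc (0.059) and Cfdp1 (0.063), where the profile of Hspa5 itself had a root mean square of 0.228. Lat2 and Ptprc, genes of leukocytes, were low, between 1.16 and 2.51 FPKM, where adding 1 to FPKM shrinks log2 differences. Most like Asns were Lpin1 (0.058), a phosphatidic acid phosphatase, Timm10b (0.069), a subunit of mitochondrial protein import, and Gm16031 (0.071), against a root mean square of 0.309 for Asns. Gm16031 was between 0.554 and 2.15 FPKM, where adding 1 shrinks differences as well. Lpin1 had 3.90, 3.44 and 3.88 FPKM in IgG and 3.77, 5.83 and 7.19 FPKM in anti-PD-1 tumors.

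The 2 other pathway genes with a log2 fold change above 1 were picked after their values were seen. Ero1l, the ER oxidase that reloads disulfide isomerase, had 51.7, 11.2 and 19.0 FPKM in IgG and 37.2, 57.9 and 58.3 FPKM in anti-PD-1 tumors, a log2 fold change of 1.13. Phgdh, the first enzyme of serine synthesis, had 19.1, 9.08 and 30.9 FPKM in IgG and 45.1, 21.3 and 53.5 FPKM in anti-PD-1 tumors, a log2 fold change of 1.04. In both genes the groups overlapped, and neither had an unadjusted limma p under 0.05. Leaving out single tumors gave log2 fold changes from 0.66 to 1.71 for Ero1l and from 0.59 to 1.43 for Phgdh. In Ero1l, IgG replicate 1 lay above anti-PD-1 replicate 1.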
